A study of Homo sapiens with 6 samples.

Results

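The genes described here encode the proteins of the mitochondrial ribosome. They were taken from a table of 63086 genes as every protein-coding gene whose GENCODE symbol is MRPL or MRPS followed by a number and, in some, a letter. The rule found 78 genes, and all 78 were among the 16046 genes with enough counts to test. By the position of each protein in known structures, 51 belong to the large subunit and 26 to the small subunit. MRPS30 and MRPS18A carry the small-subunit letter but sit in the large subunit. MRPS36, once placed in the small subunit, is now known as a component of the alpha-ketoglutarate dehydrogenase complex and was counted with neither. It stays in every count and median over all 78 members.

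Mitochondrial ribosomes translate the few mRNAs that mitochondrial DNA encodes, all of them for subunits of the respiratory chain and ATP synthase. Their rRNAs come from mitochondrial DNA, whereas every protein of the particle is encoded in the nucleus, made in the cytosol and imported. Some of these proteins have homologs in bacterial ribosomes and others are found only in mitochondria, and in many cell types the promoters of these genes are known targets of ETS family factors such as GABP and of YY1.

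The samples were A375 cells, an established human melanoma line, with 3 libraries from DUS1L knockout cells and 3 from wild-type cells. DUS1L is a tRNA dihydrouridine synthase. The knockout was made with CRISPR/Cas9 and passed through clonal selection, and the wild-type cells were kept alongside without targeting. How many clones the 3 knockout libraries represent was not given in the sources used here, so a difference between genotypes and a difference between a clone and its parental population cannot be told apart. The submitters call the libraries of each genotype biological replicates. If they are cultures of 1 clone, the p-values measure the spread between those cultures only.

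The libraries held 17121315 to 18861514 estimated counts. Every member had between 348 and 3446 counts in each library, well above the minimum count of 10 that the filter used. Precision still varied with level. DUS1L mRNA itself (chr17:82057506-82065887) stood at 55.4, 54.7 and 53.1 CPM, the count after correction for sequencing depth, in knockout libraries, against 79.95, 75.7 and 77 CPM in wild-type libraries. It was 70.2% of the wild-type level (a log2 difference of -0.51 with SE 0.06, edgeR adjusted p = 1.7e-06), so the mRNA was reduced and not lost. The melanoma line markers SOX10 (mean of 481 CPM in knockout, 604 CPM in wild-type), CSPG4 (371 CPM in knockout, 429 CPM in wild-type) and MCAM (302 CPM in knockout, 317 CPM in wild-type) were present in both genotypes. So were MITF (20.6 CPM in knockout, 19.6 CPM in wild-type), S100B (4.26 CPM in knockout, 7.94 CPM in wild-type) and S100A1 (3.95 CPM in knockout, 4.9 CPM in wild-type). SOX10, CSPG4 and S100B were called lower (edgeR adjusted p = 5.11e-05, 0.00702 and 0.000325), and MCAM, MITF and S100A1 were not called. The pigment gene TYR was at 0 in all 6 libraries, and DCT, PMEL and MLANA were each below 0.5 CPM in every library. Of the genes that mark other cells of skin and blood, KRT5, KRT1 and CD3E were at 0 throughout, and others were detected. The keratin KRT10 averaged 52.7 CPM in knockout and 54.1 CPM in wild-type libraries, KRT14 averaged 2.95 CPM in knockout and 2.71 CPM in wild-type libraries, LYZ averaged 1.35 CPM in knockout and 1.47 CPM in wild-type libraries, and CD14 averaged 0.714 CPM in knockout and 0.0949 CPM in wild-type libraries. The 6 fibroblast genes summed to 80.8 to 179 CPM in knockout and 33.6 to 98 CPM in wild-type libraries, and their part in the results was not tested. None of the 6 was called. The log2 differences of COL1A1 (1.44), COL1A2 (1.41) and COL3A1 (0.17) were above 0. Those of PDGFRA (-0.25), LUM (-0.25) and DCN (-0.24) were below it. The 5 endothelial genes summed to 2.07 to 3.99 CPM in knockout and 2.82 to 3.84 CPM in wild-type libraries. In the first 2 principal components of all tested genes, the genotypes separated on the first (53% of variance), and wild-type library 1 stood apart from the other two on the second (13.7%).

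Promoters of these genes shared short sequences, and 6 are shown. They were picked, with their values known, from members called lower or higher that carry the motif marked. Other called members, such as MRPS14 (-0.41), MRPL16 (-0.39) and the higher MRPL18 and MRPL49, are not shown. RefSeq promoter sequences (GRCh38.p14, 250 bases before to 50 bases after the start) were matched for 69 of the 78 members. The core of the ETS site, CCGGAAG on either strand, occurred in 29 of the 69 (42%), against 18.8% of the promoters of protein-coding genes tested and 10.7% of all 27305 promoters. In the next 3 sequences, read 5′ to 3′ on the gene's strand, capitals mark that core as its reverse complement. MRPS34 has 3 copies in the 100 bases before its start (chr16:1773135-1773234, minus strand). MRPL54 (chr19:3762622-3762681, plus strand) and MRPS21 (chr1:150293801-150293860, plus strand) each have 1 in the last 60 bases before theirs.
MRPS34: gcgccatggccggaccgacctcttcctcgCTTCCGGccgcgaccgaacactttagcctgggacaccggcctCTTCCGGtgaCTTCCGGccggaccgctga
MRPL54: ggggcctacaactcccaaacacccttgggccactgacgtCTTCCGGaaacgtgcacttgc
MRPS21: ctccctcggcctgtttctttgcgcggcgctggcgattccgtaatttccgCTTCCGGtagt

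The core of the YY1 site, ATGGCGG on either strand, occurred in 24 of the 69 promoters (34.8%), against 10.1% of promoters of protein-coding genes tested and 5.72% of all promoters. Of its 25 copies, 20 began after the annotated start. These letters hold an ATG, and whether that ATG is also the start codon was not examined. The next 3 sequences, with the core in capitals, belong to genes that were higher in knockout cells: MRPS18B (chr6:30617857-30617886, plus strand), MRPS24 (chr7:43869475-43869504, minus strand) and MRPS10 (chr6:42217829-42217858, minus strand).
MRPS18B: tacgtcaagATGGCGGcgtctgtattaaac
MRPS24: tggcccaagATGGCGGcctccgtgtgcagc
MRPS10: accggcaagATGGCGGcgcggacagcgttc

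The core of the NRF1 site, CATGCGC on either strand, occurred in 7 member promoters (10.1%), against 7.33% of promoters of protein-coding genes tested and 4.67% of all promoters. None of the matches to these 3 motifs overlapped a match to another of them. A match describes the letters in the window and not a bound site.

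Mitochondrial ribosomal protein mRNAs that passed the test were mostly lower in DUS1L knockout cells, by small amounts. With the threshold at an adjusted p of 0.05, 31 of 78 (39.7%) were lower and 5 (6.41%) were higher, where 20.7% of all tested genes were lower and 20.5% were higher (edgeR quasi-likelihood test, adjusted over all 16046 genes). The 31 are 23 large-subunit genes, 7 small-subunit genes and MRPS36. Counting both directions, 36 of 78 were called, where 41.2% of all tested genes were. Among protein-coding genes alone these background shares were 23.1% and 21.9%. The fitted change was below 0 in 67 of 78 members (85.9%), against 50.6% of all tested genes. The changes were small: the members' median was -0.14 on the log2 scale, or 90.6% of the wild-type level, with a range of -0.49 to 0.33, while the median of all tested genes was -0.00. No member passed a test for a change larger than 1.5-fold, which 1.27% of all tested genes passed downward and 2.31% upward. At an unadjusted p under 0.05 the count in that edgeR test was also 0. The 1.5-fold tests of DESeq2 and limma-voom, at an adjusted p under 0.05, gave 0 as well. The count of higher members changed when single libraries were left out. It was 2 without wild-type library 2 or without knockout library 1, and 3 without wild-type library 3, knockout library 2 or knockout library 3. Calls over all genes fell as well. Higher genes numbered 3288 with all libraries, 2669 without wild-type library 2 and 2755 without knockout library 1. They numbered 2959, 2784 and 2780 without wild-type library 3, knockout library 2 and knockout library 3.

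The spread between libraries was small beside this shift. Relative to the wild-type mean, the median member stood at -0.13, -0.15 and -0.13 (log2) in the 3 knockout libraries and at 0.01, 0.02 and -0.04 in the 3 wild-type libraries. Every knockout library therefore lay below every wild-type library. Single genes showed the same separation: knockout and wild-type values did not overlap in 34 members that were lower and 6 that were higher, where the groups of 25.8% and 25.4% of all tested genes did not overlap in those directions. Because the libraries come from bulk RNA, less mRNA in every cell and much less in some of the cells cannot be told apart.

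**Figure D1:**
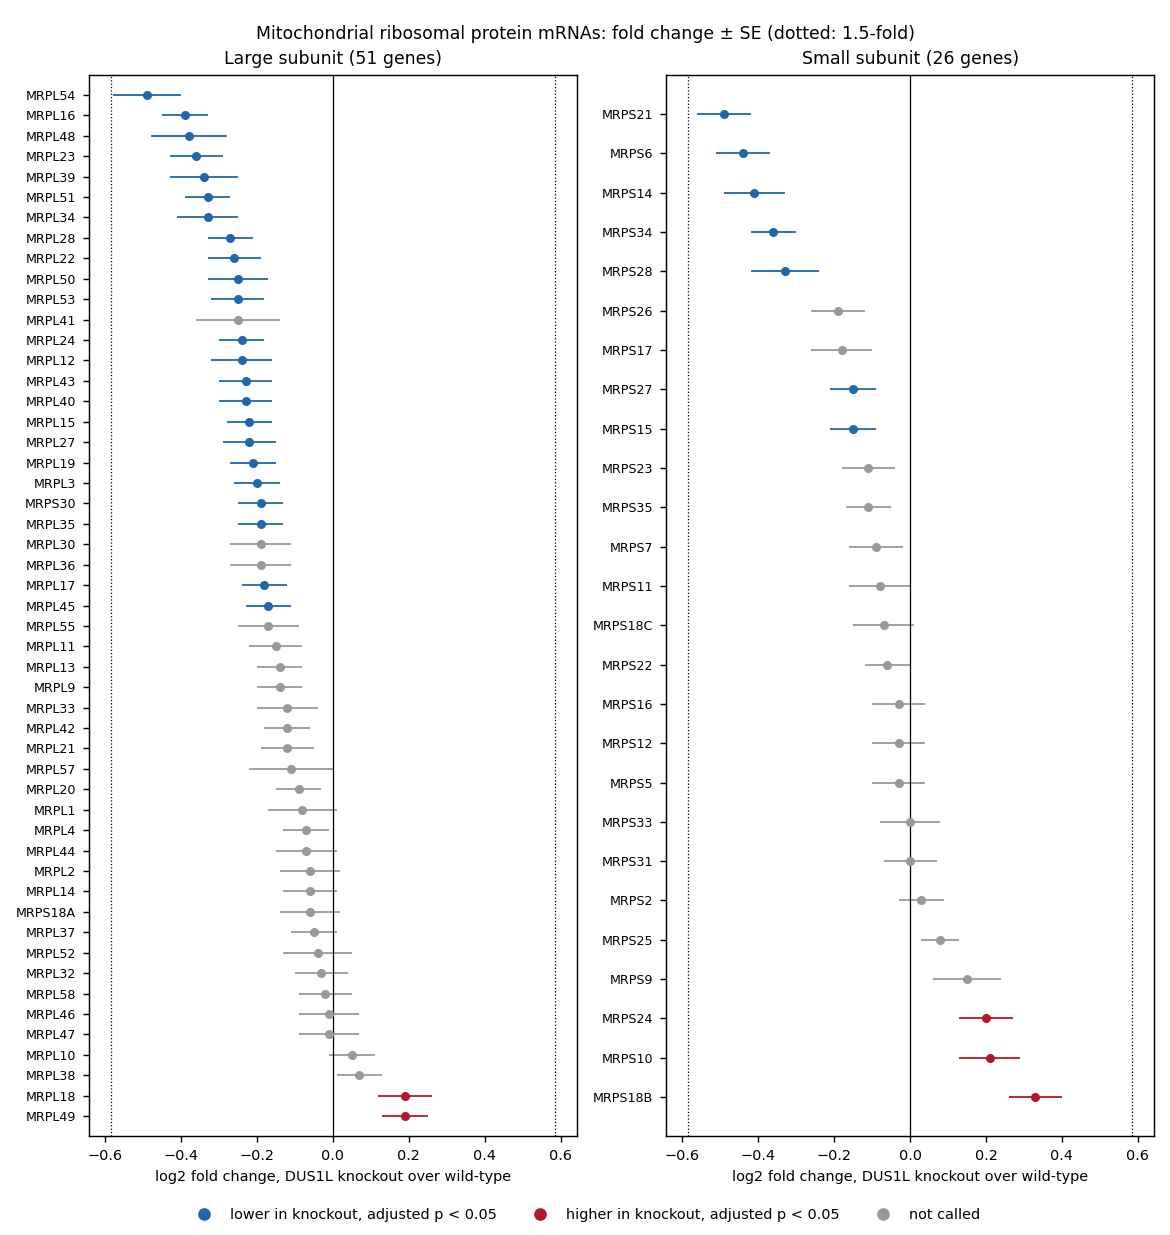
Log2 fold change of each gene, DUS1L knockout over wild-type, with its standard error as a horizontal line, for the 51 large-subunit genes (left) and the 26 small-subunit genes (right); dotted lines mark 1.5-fold. Of the large-subunit genes 23 were lower and 2 higher, of the small-subunit genes 7 were lower and 3 higher, and no point reached a dotted line. Of all tested genes 20.7% were lower and 20.5% higher.

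Large-subunit genes were called lower more often than small-subunit genes, without a test of the difference. Of 51 large-subunit genes 23 (45.1%) were lower and 2 (3.92%) higher, with a median log2 fold change of -0.17 (89% of wild-type). Of 26 small-subunit genes 7 (26.9%) were lower and 3 (11.5%) higher, with a median of -0.07 (95.2% of wild-type). Of all tested genes 20.7% were lower and 20.5% higher, and of protein-coding genes 23.1% were lower. The small-subunit share of lower genes was therefore near the background. Without knockout library 1 the lower large-subunit genes numbered 15, where 16.9% of all tested genes were lower. Without wild-type library 2 or knockout library 1, 1 small-subunit gene was higher, and without wild-type library 2 small-subunit calls in both directions numbered 6. At most 1 large-subunit gene was higher when any library other than wild-type library 1 was left out. When the genes were divided by the letter of their symbol instead, 22 of 49 MRPL genes and 9 of 29 MRPS genes were lower, and the medians were -0.17 and -0.08. The 2 subunits were therefore ordered alike by either assignment, and their ranges, -0.49 to 0.19 and -0.49 to 0.33, overlapped almost wholly.

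The summed mRNA of each subunit gave a smaller contrast. Large-subunit genes together made up 3281, 3275 and 3284 CPM in knockout libraries, against 3674, 3706 and 3531 CPM in wild-type libraries. Small-subunit genes made up 1726, 1677 and 1697 CPM in knockout libraries, against 1826, 1852 and 1763 CPM in wild-type libraries. The groups did not overlap in either sum, and the knockout mean was 90.2% of the wild-type mean for the large and 93.7% for the small subunit. The ratio of large to small was 1.93 ± 0.0267 in knockout and 2 ± 0.00634 in wild-type libraries (SD, n = 3 each). When each gene was first divided by the length of all its annotated exons together, that ratio was 2.41, 2.49 and 2.46 in knockout libraries. It was 2.53, 2.5 and 2.47 in wild-type libraries, and the groups overlapped. Whether the subunits differed in their sums thus depended on that division. The exons together can be far longer than 1 mRNA, such as 19524 bases against 2770 bases for MRPS27. All members together took 0.504% to 0.512% of the counts in knockout and 0.528% to 0.548% in wild-type libraries.

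**Figure D2:**
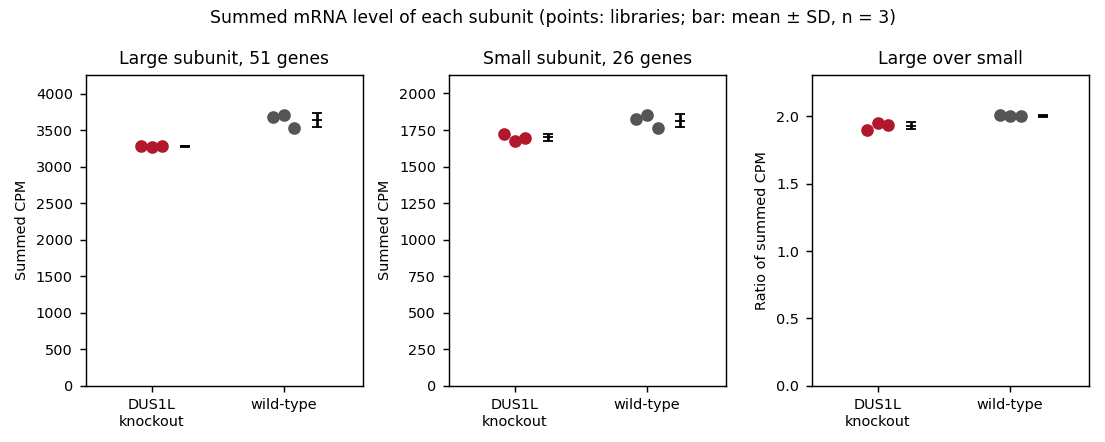
Summed CPM of the large-subunit genes (left) and small-subunit genes (middle), and their ratio (right), by library; points are the 3 DUS1L knockout and the 3 wild-type libraries, and bars show the mean ± SD. The knockout libraries lie at 3275 to 3284 CPM for the large subunit, below the 3531 to 3706 CPM of the wild-type libraries, and the ratio of about 2 differs little between genotypes.

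Among large-subunit genes, MRPL54 had the lowest fold change. MRPL54 (ENSG00000183617.5, chr19:3762682-3768575) encodes a protein that bacterial ribosomes lack, and it was at 24.7, 20.5 and 22.9 CPM in knockout libraries, against 29.3, 33 and 33.3 CPM in wild-type libraries (log2 fold change -0.49, SE 0.09, edgeR adjusted p = 0.000265). MRPL16 (chr11:59806140-59810778), a conserved protein close to the peptidyl transferase centre, was at 81.3, 78.2 and 73.8 CPM in knockout libraries, against 97.7, 104 and 103 CPM in wild-type libraries (-0.39, SE 0.06, edgeR adjusted p = 3.26e-05). In neither gene did the genotypes overlap. MRPL51 (chr12:6491886-6493841), another mitochondria-specific protein, was at 117, 121 and 113 CPM in knockout libraries, against 146, 157 and 138 CPM in wild-type libraries (-0.33, SE 0.06, edgeR adjusted p = 0.00012). Its exons overlap those of NCAPD2, a condensin gene on the opposite strand, over 27.6% of their length, and NCAPD2 was lower as well (158 CPM in knockout, 223 CPM in wild-type, -0.50, edgeR adjusted p = 3.76e-06). MRPL28, the homolog of a bacterial large-subunit protein, was at 75.2, 77.7 and 83.6 CPM in knockout libraries, against 91.1, 99.8 and 94.9 CPM in wild-type libraries (-0.27, SE 0.06, edgeR adjusted p = 0.00141).

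The proteins that line the exit of the polypeptide tunnel, where nascent respiratory chain subunits leave toward the inner membrane, were lower in 5 of 6 genes (MRPL17, MRPL22, MRPL23, MRPL24 and MRPL45), with a median of -0.21, where 20.7% of all tested genes were lower. The count was 3 with library size alone, without wild-type library 2 or without knockout library 1, because MRPL17 and MRPL45 were then not called. In those analyses 17%, 16.4% and 16.9% of all tested genes were lower. MRPL23 was at 46.7, 49.2 and 46.6 CPM in knockout libraries, against 56.5, 65.3 and 61.1 CPM in wild-type libraries (-0.36, SE 0.07, edgeR adjusted p = 0.000362). MRPL24 was at 92.2, 90.3 and 88.4 CPM in knockout libraries, against 109, 105 and 105 CPM in wild-type libraries (-0.24, SE 0.06, edgeR adjusted p = 0.00214). Knockout and wild-type values did not overlap in either gene. MRPL45, which holds the ribosome at the inner membrane, was at 73.8, 73.9 and 77.4 CPM in knockout libraries, against 86.8, 87.7 and 78.3 CPM in wild-type libraries (-0.17, edgeR adjusted p = 0.0381). Its call was lost in 8 of 13 other analyses of the same counts, so it is weaker than those of MRPL22, MRPL23 and MRPL24, which were kept in all 13. MRPL47, the sixth gene of the group, was at 74.2, 77.3 and 75.1 CPM in knockout libraries, against 88, 71.7 and 68.6 CPM in wild-type libraries, with wild-type library 1 high (-0.01, edgeR adjusted p = 0.928), and its fitted change was 0.11 without that library.

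The other structural groups of the large subunit were mixed. Of 9 genes of the central protuberance, the crown of the subunit that contacts the tRNAs, 3 were lower (MRPL27, MRPL40 and MRPL48) and 1 was higher (MRPL18), with a median of -0.04. Without wild-type library 2 or without knockout library 1, MRPL48 was the one gene of the 9 still called, and MRPL18 also lost its call without wild-type library 3, without knockout library 2, with no filter and in DESeq2. MRPL48 was at 32, 36.5 and 33.4 CPM in knockout libraries, against 52.9, 38.9 and 41.1 CPM in wild-type libraries (-0.38, SE 0.10, edgeR adjusted p = 0.00699). Wild-type library 1 was the highest of the 6, and without it the groups still did not overlap. MRPL38, mitochondria-specific and the highest of the subunit after the 2 genes called higher, was at 80.7, 75.5 and 77.3 CPM in knockout libraries, against 71.5, 74 and 77.5 CPM in wild-type libraries (0.07, edgeR adjusted p = 0.417). Of 10 genes of the conserved core, 4 were lower (MRPL3, MRPL15, MRPL16 and MRPL19), none was higher at an adjusted p under 0.05, and all 10 had a fitted change below 0, although that of MRPL4 was 0.02 with the length and GC correction. Without knockout library 1, 2 of the 10 were lower, and MRPL3 and MRPL15 were not called.

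The stalk, which recruits translation factors, has 3 genes here. Of these, MRPL12 was the one called, and it is also the one member within 1 Mb of DUS1L on chromosome 17. MRPL12 (chr17:81703367-81707517) was at 111, 94.9 and 98.5 CPM in knockout libraries, against 105, 123 and 131 CPM in wild-type libraries (-0.24, SE 0.08, edgeR adjusted p = 0.0234). The groups overlapped, because knockout library 1 exceeded wild-type library 1, and the call was lost in 7 of 13 other analyses. MRPL11 (-0.15, edgeR adjusted p = 0.082) and MRPL10 (0.05, edgeR adjusted p = 0.578), the other stalk genes, were not called.

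Among small-subunit genes, MRPS21 had the lowest fold change. MRPS21 (ENSG00000266472.6, chr1:150293861-150308979), a homolog of a small bacterial ribosomal protein, was at 52.6, 47.4 and 44.6 CPM in knockout libraries, against 71.5, 68 and 63 CPM in wild-type libraries (-0.49, SE 0.07, edgeR adjusted p = 2.6e-05). MRPS6 (chr21:34073224-34143034) was at 49.3, 56.6 and 54.2 CPM in knockout libraries, against 78.8, 70.2 and 68.7 CPM in wild-type libraries (-0.44, SE 0.07, edgeR adjusted p = 5.32e-05). All knockout values lay below all wild-type values in both genes. MRPS6 shares exon sequence on the same strand with SLC5A3, an inositol transporter gene, which was lower by a like amount (52.8 CPM in knockout, 71.3 CPM in wild-type, -0.43, edgeR adjusted p = 0.00103), and how reads were divided between the 2 genes was not given in the sources used here.

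MRPS14 (chr1:175010789-175023425), a conserved protein of the head of the subunit, was at 27.7, 27.7 and 23.9 CPM in knockout libraries, against 35.5, 35 and 35.1 CPM in wild-type libraries (-0.41, SE 0.08, edgeR adjusted p = 0.000512). Its exons overlap those of CACYBP on the opposite strand, and CACYBP moved the other way (393 CPM in knockout, 350.1 CPM in wild-type, 0.17, edgeR adjusted p = 0.00967). MRPS34 (chr16:1771890-1773150), which bacteria lack, was at 123, 119.5 and 122 CPM in knockout libraries, against 147, 164 and 155 CPM in wild-type libraries (-0.36, SE 0.06, edgeR adjusted p = 3.35e-05). The groups did not overlap in either gene. Of the 9 mitochondria-specific genes of the small subunit, MRPS34 and MRPS27 were lower, and MRPS27 lost its call in 8 of 13 other analyses. The remaining lower genes of the subunit were MRPS28 (-0.33) and MRPS15 (-0.15), and MRPS15 lost its call in 11 of 13 other analyses. MRPS36, of the alpha-ketoglutarate dehydrogenase complex, was at 26.4, 31.9 and 29.95 CPM in knockout libraries, against 37.6, 39.1 and 36.3 CPM in wild-type libraries (-0.36, SE 0.08, edgeR adjusted p = 0.0018), a change within the range of the ribosomal genes.

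Of the members, 5 were higher, 3 of them in the small subunit. MRPS18B (ENSG00000204568.12, chr6:30617840-30626395), 1 of 3 human homologs of the same bacterial protein, was at 51.7, 51.9 and 51.3 CPM in knockout libraries, against 37.9, 44.1 and 41.6 CPM in wild-type libraries (0.33, SE 0.07, edgeR adjusted p = 0.00127). Its call alone of the 5 was kept in all 13 other analyses. The other homologs were not called: MRPS18A averaged 46 ± 3.36 CPM in knockout and 47.9 ± 3.54 CPM in wild-type libraries, and MRPS18C averaged 35.9 ± 0.436 CPM in knockout and 37.5 ± 2.97 CPM in wild-type libraries (SD, n = 3 each). Whether MRPS18B differed from its homologs in its change was not tested.

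MRPS24, a homolog of a bacterial protein at the mRNA entry, was at 89.1, 83.7 and 74.5 CPM in knockout libraries, against 73.1, 69.1 and 72.6 CPM in wild-type libraries (0.20, SE 0.07, edgeR adjusted p = 0.0213). MRPS10, of the conserved core, was at 43.4, 37.6 and 40.7 CPM in knockout libraries, against 33.9, 34.3 and 37 CPM in wild-type libraries (0.21, SE 0.08, edgeR adjusted p = 0.0364). Their nearest libraries differed by less than 2 CPM. In the large subunit, MRPL18, the central protuberance homolog of a bacterial protein that binds 5S rRNA, was at 74.9, 77.6 and 67.9 CPM in knockout libraries, against 66, 63.3 and 64.2 CPM in wild-type libraries (0.19, SE 0.07, edgeR adjusted p = 0.027). MRPL49, mitochondria-specific, was at 136, 136 and 147 CPM in knockout libraries, against 124, 126 and 119 CPM in wild-type libraries (0.19, SE 0.06, edgeR adjusted p = 0.0107). All 4 separated the genotypes, and all 4 lost their call in some of the 13 other analyses, MRPS10 in 8, MRPL18 in 6, MRPS24 in 3 and MRPL49 in 2. Exons of MRPL49 overlap those of SYVN1 on the opposite strand, which was also higher (119.9 CPM in knockout, 102 CPM in wild-type, 0.23, edgeR adjusted p = 0.0039).

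**Figure D3:**
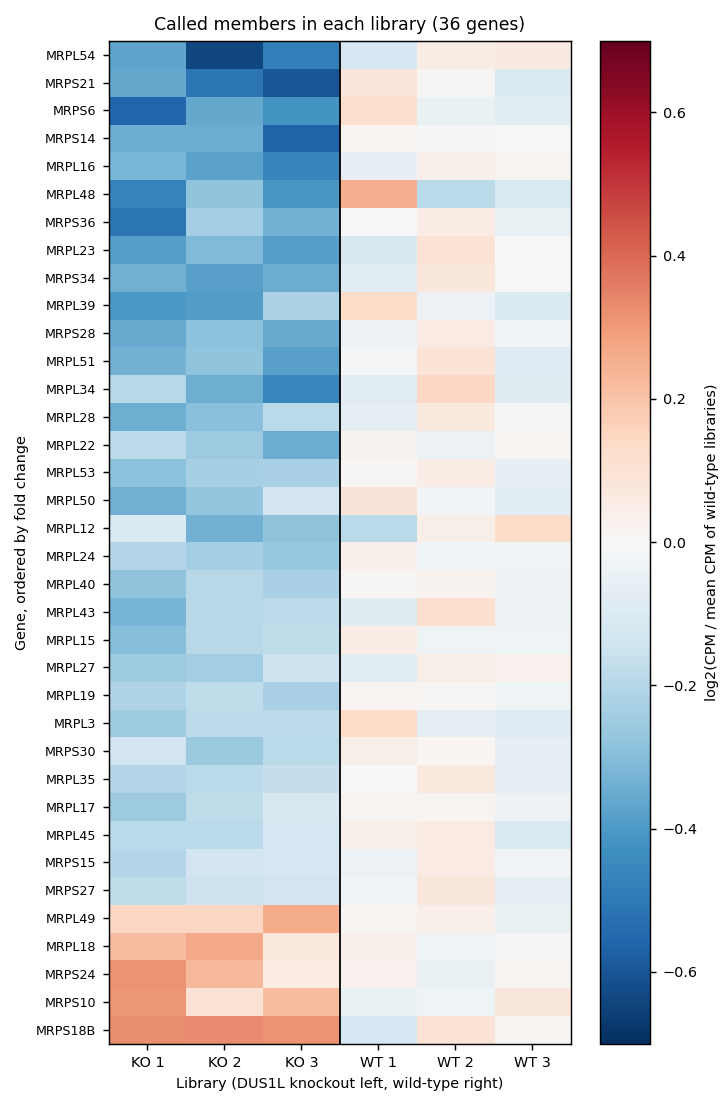
Level of the 36 called genes in each of the 3 DUS1L knockout (left) and 3 wild-type (right) libraries, as log2 of CPM over the wild-type mean; blue is below and red above that mean. The 31 lower genes are ordered from MRPL54 (-0.49) downward and the 5 higher genes end with MRPS18B (0.33); MRPL12 has a wild-type library below a knockout library.

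Lower genes occurred in both classes of evolutionary origin and at all lengths and levels. In the large subunit 13 of 31 genes with bacterial homologs and 10 of 20 mitochondria-specific genes were lower, with medians of -0.17 and -0.18. In the small subunit 5 of 17 genes with bacterial homologs and 2 of 9 mitochondria-specific genes were lower, with medians of -0.07 and -0.11. These mRNAs are short, with a median length of 1242 bases against 3395 bases for protein-coding genes tested, and they range from 496 to 15557 bases. Across the 78 members, the log2 fold change had Pearson correlations of 0.17 with log2 length, 0.08 with log2 level and -0.02 with GC content (Spearman 0.21, 0.07 and 0.02), a description over genes of the same 6 libraries. The 39 shorter mRNAs had 17 lower genes and a median of -0.17, and the 39 longer ones had 14 and a median of -0.11.

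Levels differed more between members than between genotypes. Per kilobase of mRNA, the highest levels over all libraries were those of MRPL51 (147 CPM per kb) and MRPL20 (124 CPM per kb) in the large subunit and of MRPS34 (139 CPM per kb) and MRPS24 (115 CPM per kb) in the small subunit. The lowest were those of MRPL42 (4.68 CPM per kb) and MRPL19 (8.2 CPM per kb), and of MRPS33 (8.77 CPM per kb) and MRPS14 (14.6 CPM per kb). The low values go with long annotated mRNAs, 15557 bases for MRPL42 and 7825 bases for MRPL19. The high-level genes included lower (MRPL51 and MRPS34), higher (MRPS24) and uncalled genes (MRPL20, 87.9, 83.8 and 81.8 CPM in knockout libraries, against 86.5, 92.1 and 90.4 CPM in wild-type libraries).

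The promoter motifs did not separate the directions of change in a simple way. The ETS core was in 12 of 26 lower members with a promoter sequence, in 1 of 5 higher members and in 16 of 38 members not called. Members with it had a median log2 fold change of -0.12 and members without it -0.13. The YY1 core was in 7 of 26 lower, 3 of 5 higher and 14 of 38 uncalled members, and the medians with and without it were -0.07 and -0.17. The 3 higher genes with it were MRPS18B, MRPS24 and MRPS10, whose sequences are printed here, and the lower ones included MRPS14 (-0.41) and MRPS34 (-0.36). The NRF1 core was in 3 of 26 lower, 1 of 5 higher and 3 of 38 uncalled members. These counts are few, and no test was made of them.

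Many members share their promoter region with a neighbour that points the other way. In 17 of 78 members (21.8%), against 11% of protein-coding genes tested, the start lay within 1000 bases of the start of a protein-coding gene read in the opposite direction. MRPL46 and MRPS11 are such a pair, so there were 16 pairs. The partners were lower in 5 pairs and higher in 7, at a median of 0.06, where 20.7% of all tested genes were lower and 20.5% higher. The 2 genes of a pair were both lower once, both higher once and called in opposite directions 3 times, and their fold changes had a Pearson correlation of -0.12 over the pairs (Spearman -0.15). MRPL49 and FAU, a cytosolic ribosomal protein gene, start 6 bases apart. FAU was at 369.95, 357 and 384 CPM in knockout libraries, against 438, 431 and 402 CPM in wild-type libraries (-0.19, edgeR adjusted p = 0.00472), where MRPL49 was higher by 0.19. MRPL27 and EME1, a subunit of a DNA repair nuclease, start 13 bases apart and were both lower (-0.22 and -0.43). MRPL18 and TCP1, a subunit of the cytosolic chaperonin, were both higher (0.19 and 0.13). MRPL54 (-0.49) and MRPL50 (-0.25) were lower where their partners APBA3 (0.32) and ZNF189 (0.37) were higher. MRPS12, a protein of the decoding centre, was not called (-0.03), while its partner SARS2, the mitochondrial seryl-tRNA synthetase, was lower (-0.62, edgeR adjusted p = 1.32e-05). The choice of partners to name was made with their values known.

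**Figure D4:**
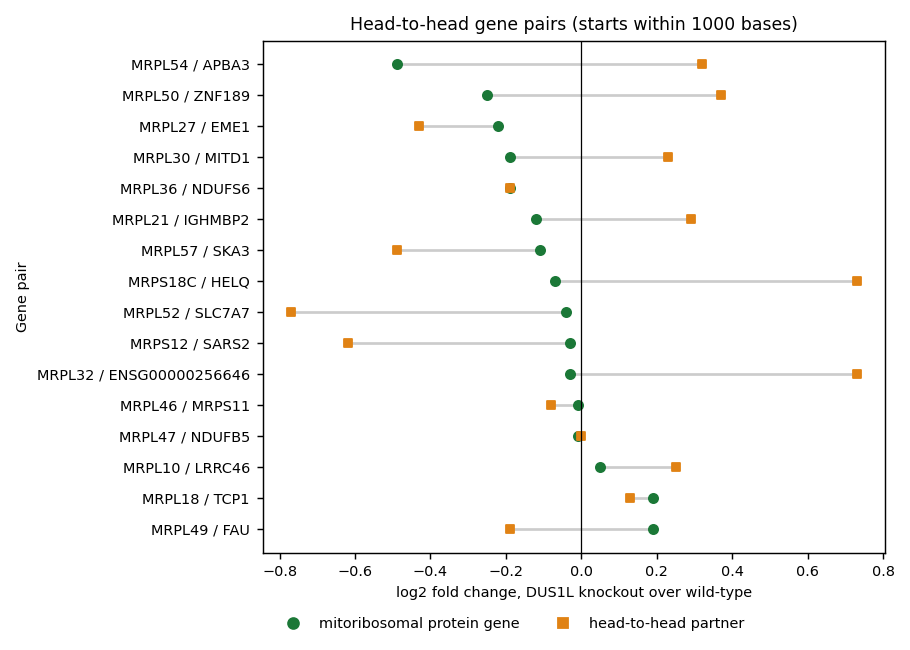
Log2 fold change, DUS1L knockout over wild-type, of the mitochondrial ribosomal protein gene (circle) and its head-to-head partner (square) in each of 16 pairs, joined by a line. Pairs differ in direction about as often as they share it: 9 of 16 have the same sign, and FAU (-0.19) and MRPL49 (0.19) lie on opposite sides of 0.

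The other groups of mitochondrial genes did not all move one way, and their median log2 fold changes ranged from -0.30 to 0.30. The background for every count of the main analysis, here and in the paragraphs that follow, is 20.7% of all tested genes lower and 20.5% higher. In the other analyses the lower share ran from 9.32% (DESeq2) to 23.6% (length and GC correction). Of 5 proteins of the ribosome with other symbols, 1 was lower. AURKAIP1, a small-subunit protein, averaged 112 ± 9.15 CPM in knockout and 137 ± 8.23 CPM in wild-type libraries (SD, n = 3 each, log2 fold change -0.29, edgeR adjusted p = 0.00127). CHCHD1 (-0.22, edgeR adjusted p = 0.0687), GADD45GIP1 (-0.10), PTCD3 (-0.06) and the GTP-binding protein DAP3 (-0.02) were not called. All 5 fitted changes were below 0, with a median of -0.10, where the small-subunit genes had -0.07. That of DAP3 was 0.03 with library size alone and 0.01 without knockout library 2. CHCHD1 passed as lower without knockout library 2 and GADD45GIP1 without knockout library 1.

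Factors that assemble the ribosome or modify its rRNA split evenly, 8 of 27 lower and 7 higher, with a median of -0.05. TFB1M, the dimethyltransferase of the small rRNA, was at 26.7, 25.3 and 23 CPM in knockout libraries, against 37.6, 40.2 and 34.6 CPM in wild-type libraries (-0.59, SE 0.09, edgeR adjusted p = 1.93e-05). METTL15 and NSUN4 also methylate the small rRNA. METTL15 was at 22.2, 24 and 22.6 CPM in knockout libraries, against 15.6, 16.5 and 15.6 CPM in wild-type libraries (0.53, edgeR adjusted p = 0.000195), and NSUN4 averaged 39.1 ± 0.584 CPM in knockout and 28.4 ± 2.05 CPM in wild-type libraries (0.46, edgeR adjusted p = 0.000108). These 3 methyltransferases of the same rRNA went in both directions, but METTL15 and NSUN4 were picked with their values known. Of the 27 factors, 12 were not called. C1QBP, an abundant matrix protein, was lower (-0.30, edgeR adjusted p = 8.37e-05). Of 18 translation factors 1 was lower, the membrane insertase OXA1L (-0.24, edgeR adjusted p = 0.00824), and 3 were higher, GUF1 (0.27, edgeR adjusted p = 0.00694) with the smallest p among them. These counts rested on the analysis: 1 factor was higher in DESeq2 and without wild-type library 3, knockout library 1 or knockout library 2, and 5 were higher with library size alone. Lower factors numbered 0 without knockout library 3, 2 with no filter, and 3 without wild-type library 3 or with the length and GC correction.

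Among the products of mitochondrial DNA, 1 rRNA was higher and most mRNAs were lower. The small rRNA MT-RNR1 was at 849, 932 and 898 CPM in knockout libraries, against 765, 651 and 623 CPM in wild-type libraries (0.39, SE 0.07, edgeR adjusted p = 0.000216). The large rRNA MT-RNR2 was at 4683, 4931 and 4711 CPM in knockout libraries, against 4916, 3775 and 3679 CPM in wild-type libraries (0.21, SE 0.11, edgeR adjusted p = 0.193). The second result depended on the analysis. Without wild-type library 1, the highest of its group, MT-RNR2 was higher by 0.36 (edgeR adjusted p = 1.23e-06) and MT-RNR1 by 0.49, and with all 6 libraries MT-RNR2 was also called higher by limma-voom (0.22, adjusted p = 0.0312) and by edgeR with no filter (0.20, adjusted p = 0.0102). Of 13 mRNAs 9 were lower and 1 higher, with MT-CO1 (-0.48, edgeR adjusted p = 4.56e-07) and MT-ATP6 (-0.53, edgeR adjusted p = 6.18e-07) among the lower. The fitted change was below 0 in 12 of the 13, and their median of -0.30 was below that of either subunit. Without wild-type library 2, 6 mRNAs were lower and 0 higher, and 6 were lower without knockout library 1. The higher call was also lost without wild-type library 3 or knockout library 2. Summed, mitochondrially encoded transcripts took 3.79%, 4.1% and 3.84% of counts in knockout libraries, against 4.77%, 4.55% and 4.41% in wild-type libraries. Whether libraries were made from polyadenylated RNA was not given in the sources used here, and rRNA counts depend on it.

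Regulators known to act on nuclear genes for mitochondrial proteins were called higher (22.2%) about as often as all tested genes (20.5%). Of 9, none was lower and 2 were higher at an adjusted p under 0.05 in edgeR: the coactivator PPRC1 (139 ± 3.52 CPM in knockout and 111 ± 10.7 CPM in wild-type libraries, 0.32, edgeR adjusted p = 0.000443) and GABPB1, a subunit of the ETS factor GABP (66.5 ± 2.75 CPM in knockout and 55.3 ± 1.87 CPM in wild-type libraries, 0.27, edgeR adjusted p = 0.00265). At an unadjusted p under 0.05 ESRRA was also lower (-0.18, edgeR adjusted p = 0.0551) and PPARGC1B was also higher (0.32, edgeR adjusted p = 0.0537). DESeq2 and limma-voom called none of the 9 lower. ESRRA passed as lower in edgeR with no filter, with the length and GC correction and without wild-type library 1. With library size alone 4 of the 9 were higher. PPARGC1A (0.52, edgeR adjusted p = 0.12), GABPA (0.17), NRF1 (-0.04), YY1 (-0.04) and MYC (0.09) were not called. Among 15 genes of mitochondrial transcription and RNA processing 2 were lower, with the tRNA-processing nuclease ELAC2 at -0.28, and 3 were higher, with FASTKD5 at 0.33 (edgeR adjusted p = 0.000685 for both). With library size alone 6 of the 15 were higher, and without wild-type library 3, knockout library 2 or knockout library 3, 1 was lower. Among 19 import genes 5 (26.3%) were lower and 3 (15.8%) higher, near the shares over all tested genes. Without knockout library 3, 2 were lower and 2 higher, and without wild-type library 2, 3 were lower. TOMM5, a small subunit of the outer-membrane translocase, was lower (-0.45, edgeR adjusted p = 3.19e-06), and TIMM44, which tethers the import motor, was higher (0.61, edgeR adjusted p = 1.76e-07).

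**Figure D5:**
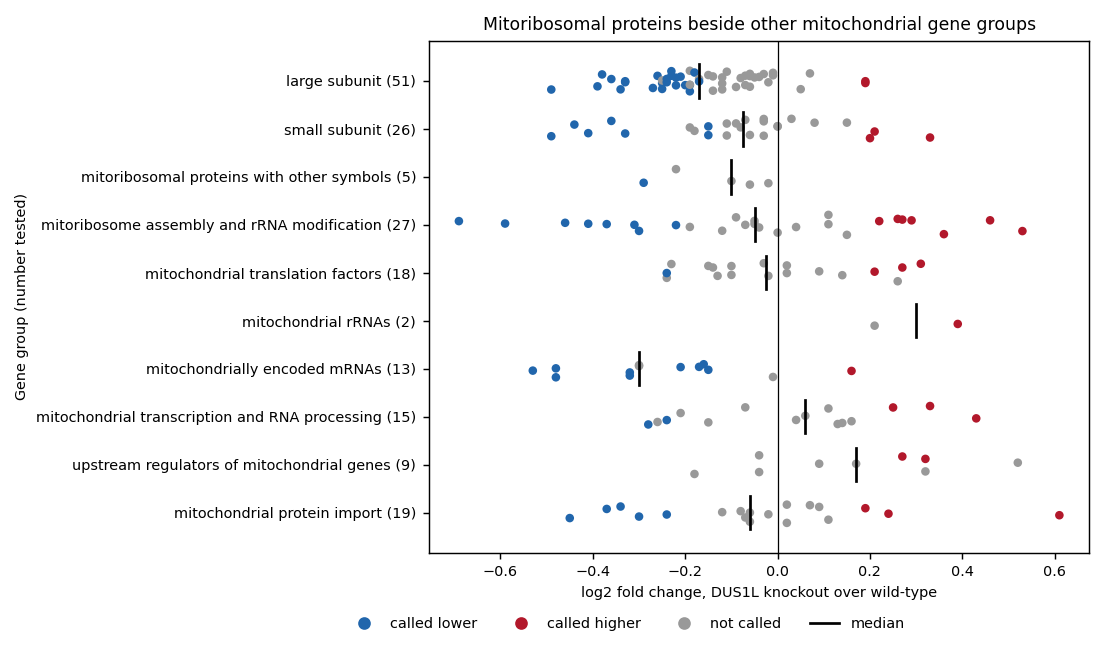
Log2 fold change, DUS1L knockout over wild-type, of the large-subunit and small-subunit genes and of 8 other groups of mitochondrial genes; each point is a gene, coloured by its call, and the bar is the group's median. The medians are -0.17 for the large subunit, -0.07 for the small subunit and -0.10 for ribosomal proteins with other symbols. They are -0.05 for assembly and rRNA modification, -0.03 for translation factors, -0.30 for mitochondrially encoded mRNAs and 0.30 for the rRNAs. They are 0.06 for transcription and RNA processing, 0.17 for upstream regulators and -0.06 for import.

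Overlapping genes and pseudogenes limit some single values. Exons of 31 members overlap those of a tested gene, on the opposite strand in 24, and since the strand setting of the counting was not given in the sources used here, their reads cannot be told apart. MRPL53, called lower (44.4, 46.2 and 46.4 CPM in knockout libraries, against 54.5, 56.2 and 52.1 CPM in wild-type libraries), shares 72.8% of its exon bases with CCDC142 on the same strand, which was higher (0.58, edgeR adjusted p = 0.000403). The overlapping genes, too, were picked with their values known. The 79 annotated pseudogenes of 36 members together held 0.0058% to 0.0174% of the members' summed CPM.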

How the data were processed

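Total RNA of 3 DUS1L knockout and 3 wild-type A375 samples was sequenced in paired-end mode, per the labels. The authors deposited expected counts (estimated counts that need not be whole) per gene, with 1 column per library and no recorded normalization. Per the submitters' processing notes the genome was GRCh38 (hg38). For the aligner, counter, strand setting and annotation, nothing was given in the sources used here. Symbols and coordinates came from GENCODE release 44 (62541 of 63086 identifiers matched), lengths from its canonical transcripts and, for sums per length, from the union of exons. Of the members, 30 had a fractional count in some library.

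Counts were rounded. Genes passing edgeR's filterByExpr (minimum count 10) were kept, libraries scaled by TMM, and knockout compared with wild-type by robust quasi-likelihood in edgeR 4.0.16 (R 4.3.3), with Benjamini-Hochberg adjustment over 16046 genes and a threshold of 0.05, two-sided. The same fit tested for changes beyond 1.5-fold (glmTreat). CPM values use scaled library sizes, and 3 counts correspond to 0.159 to 0.176 CPM, a limit that covers counting error only. The common biological coefficient of variation was 7.12%. The fit was also run on simulated data in which few genes changed, equally many up and down. In the real data 41.2% of tested genes were called. That run therefore does not test the scaling or the calls under such conditions.

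Alternatives were library size alone, DESeq2's size factors, DESeq2 1.42.0, limma-voom (limma 3.58.1), no filter, a correction for transcript length and GC content, the replicate number as a block, and leaving out each library, 13 in all. Genes are named by rule: in each subunit the 5 called members with the smallest p, the 3 lowest and 3 highest fold changes and the 2 highest and 2 lowest levels per length; all members called higher or within 1 Mb of DUS1L; examples of each structural group; and of other lists the 2 smallest p. Any others were picked with their values known. The members and lists were chosen with earlier results of these data known. So were the motif letters: longer forms of the YY1 and NRF1 sites were searched first and are not reported here. Sums, motifs and pairs of neighbours are descriptions without tests.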

Additional observations from a re-analysis of the deposited data

How the results depend on the processing

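The members' median log2 fold change was below 0 in all 14 analyses, from -0.17 to -0.10, and no member called in any of them had a sign opposite to that reported. Of the members not called, at least 13 crossed 0 in some alternative, MRPL47 and MRPS12 among them. The count used rounded changes, so a member whose change rounds to 0 was not counted. Of the 31 lower and 5 higher calls, 18 and 1 were kept in all 13 alternatives. With library size alone, which moved the median of all genes by 0.04, 25 members were lower and 5 higher. Of all tested genes 17% were then lower, and 3880 were higher where the main analysis had 3288. DESeq2 gave 28 lower and 3 higher members and no filter gave 32 and 3. In both, 1 large-subunit gene was higher. Over 30318 genes, 9.32% were lower in DESeq2 and 11.3% with no filter. With 1 library left out, 22 to 34 members were lower and 2 to 5 higher: in the large subunit 15 to 26 lower, 0 to 2 higher and 16 to 26 called in all, and in the small subunit 1 to 3 higher and 6 to 11 called in all. The lowest counts of lower members came without wild-type library 2 (22 lower, 2 higher) or knockout library 1 (22 lower, 2 higher), which also leave fewer samples. Of all tested genes 16.4% were lower without wild-type library 2 and 16.9% without knockout library 1, against 20.7% in the main analysis. In the large subunit the count of 15 came without knockout library 1. The knockout-over-wild-type log2 change of the ratio of large-subunit to small-subunit sums, -0.06, was -0.03 per length of the union of exons. Same-numbered libraries did not deviate together (correlations of -0.0296, -0.00139 and 0.0255), and with the replicate block 28 members were lower and 4 higher. No member was near the filter, but the precision varied with level as well as with the 3 libraries per genotype. At the same fold change of -0.17, MRPL45 (75 CPM in knockout, SE 0.06) was called. MRPL55 (29.4 CPM in knockout, SE 0.08) was not.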
